A study of Mus musculus with 8 samples.

Results

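Vip, Tac1, Chat, Elavl4, Ret, Uchl1, Prph, Snap25 and Stmn2, 9 genes known for their expression in the neurons of the gut wall, were followed over 3 mouse organs. They were chosen by gene symbol, and all 9 had a row among the 21649 genes of the deposited table. RNA was sequenced from sorted cells that the labels call non-vascular smooth muscle, in 3 libraries from intestine, 2 from lung and 3 from bladder. The mice of all 3 groups carried Cspg4-Dre, Acta2-CreERT and R26-GFP. All received tamoxifen at 0.75 mg per 10 g of body weight on 3 days, from a solution of 20 mg/mL in corn oil. Dre and CreERT are recombinases, here driven by Cspg4 and by Acta2, and the labels used here give neither the age of the mice nor which recombination events left a cell inside the sort gate. None of the 3 organs is a control of the others, and the labels do not say whether libraries came from separate mice, so the p-values reflect how far libraries of an organ differed, and that spread may be technical.

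Enteric neurons lie in ganglia between and beneath the muscle layers of the gut. They form motor, sensory and interneuron circuits that work through acetylcholine, nitric oxide and peptides, and their axons run along the muscle cells they control. They descend from neural crest cells that need the receptor tyrosine kinase Ret to colonise the gut. The labelled cell type of the libraries is muscle, and none of the 9 genes is a defining marker of it. In a bulk library, fewer cells of a type and less RNA per cell cannot be told apart.

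The regions around the annotated starts are shown for the member with the largest difference between organs (Vip), for the other peptide precursor (Tac1) and for the member with the smallest difference (Uchl1), so that the sequences can be set beside the values. RefSeq promoter windows, from 250 bases before to 50 bases after a start on build GRCm38.p6, were matched for 6 of the 9 members with 9 entries (Vip, Tac1, Chat, Elavl4, Uchl1 and Prph). Ret, Snap25 and Stmn2 had no entry. The windows are Vip at chr10:5638968-5639267 (plus strand), Tac1 at chr6:7554811-7555110 (plus strand) and Uchl1 at chr5:66675871-66676170 (plus strand). Capitals mark TGACG, the core of the cyclic AMP response element, with its reverse complement CGTCA, and TATAAA, the TATA box, searched on both strands.
Vip: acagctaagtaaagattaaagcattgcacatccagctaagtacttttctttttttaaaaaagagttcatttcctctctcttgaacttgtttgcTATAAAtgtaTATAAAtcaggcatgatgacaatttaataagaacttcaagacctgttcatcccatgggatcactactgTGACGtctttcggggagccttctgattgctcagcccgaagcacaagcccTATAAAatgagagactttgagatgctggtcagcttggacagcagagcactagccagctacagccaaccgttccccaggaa
Tac1: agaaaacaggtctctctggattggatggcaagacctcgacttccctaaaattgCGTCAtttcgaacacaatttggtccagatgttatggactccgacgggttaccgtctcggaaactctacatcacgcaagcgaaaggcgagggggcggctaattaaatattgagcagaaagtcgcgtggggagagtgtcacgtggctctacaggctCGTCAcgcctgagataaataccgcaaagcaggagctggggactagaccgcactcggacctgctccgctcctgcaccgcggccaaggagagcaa
Uchl1: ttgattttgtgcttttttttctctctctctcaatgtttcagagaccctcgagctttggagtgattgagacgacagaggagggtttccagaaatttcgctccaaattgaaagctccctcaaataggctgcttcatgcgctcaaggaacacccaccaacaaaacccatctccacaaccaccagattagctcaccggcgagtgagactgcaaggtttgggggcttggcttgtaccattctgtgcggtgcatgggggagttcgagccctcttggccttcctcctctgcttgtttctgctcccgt
The Vip window held TGACG at 79 to 75 bases before the start and TATAAA at 3 places, the nearest 30 to 25 bases before the start. The Tac1 window held CGTCA at 2 places, the nearer 43 to 39 bases before the start, and no TATAAA. The Uchl1 window held neither motif. TGACG also lay in the Chat window and in 3 of the 4 Elavl4 windows, of which 2 overlap and hold the same match, and TATAAA in the Prph window at 31 to 26 bases before the start. Over 32851 RefSeq windows of this length, 20.8% held TGACG and 13.6% held TATAAA on either strand. GC content was 41.7% in the Vip window, 54.0% in the Tac1 window and 50.7% in the Uchl1 window, beside a median of 52.7% over the 32851 windows. CpG dinucleotides numbered 4, 22 and 9 in these windows, beside a median of 7. The matches are descriptions of letters and were not tested for binding.

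The libraries held 12.02 to 13.19 M reads in intestine, 12.7 to 13.6 M in lung and 9.72 to 10.95 M in bladder, reconstructed from the spacing of the deposited values. Acta2, which encodes smooth muscle actin, had normalized read counts of 2876, 2454 and 2600 in intestine, 2719 and 2630 in lung, and 2933, 2549 and 2323 in bladder. Myh11, the smooth muscle myosin heavy chain, had 12038, 11371 and 12454 in intestine, 10795 and 10378 in lung, and 6099, 4423 and 4601 in bladder. Cspg4, which drives Dre, had 4370, 4617 and 4220 in intestine, 4757 and 4045 in lung, and 417, 387 and 433 in bladder. These 3 genes were read in all 8 libraries, and Myh11 and Cspg4 were lower in bladder than in either other organ. Acta2 and Myh11 were among 339 genes that averaged 1 or more reads per nt of exon, whose median log2 difference was -0.40 for intestine minus bladder, 0.02 for intestine minus lung and -0.42 for lung minus bladder, beside 0.06, 0.04 and 0 over all genes. The members reached at most 0.543 reads per nt, and the part of read density in the results was not tested.

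All 9 members had higher values in intestine than in either other organ, by limma on log2(value + 1) with p-values adjusted by Benjamini-Hochberg over all 18097 genes tested and a threshold of 0.05. Over all genes tested, 28.7% were higher in intestine when set against bladder (51.9% in either direction) and 23.6% when set against lung (39.5% in either direction). For each of the 9 members the lowest intestine library lay above the highest library of either other organ, as it did for 34.3% of all genes against bladder and 31.6% against lung. Vip, Chat, Elavl4 and Snap25 passed the filter on low values through the intestine libraries alone, so these 4 had to differ. Tac1, Ret, Uchl1, Prph and Stmn2 passed it in the other organs as well. Summed over the 9 members, the normalized read count was 4820, 5317 and 5334 in intestine, 581 and 809 in lung, and 995, 1004 and 1110 in bladder.

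**Figure D1:**
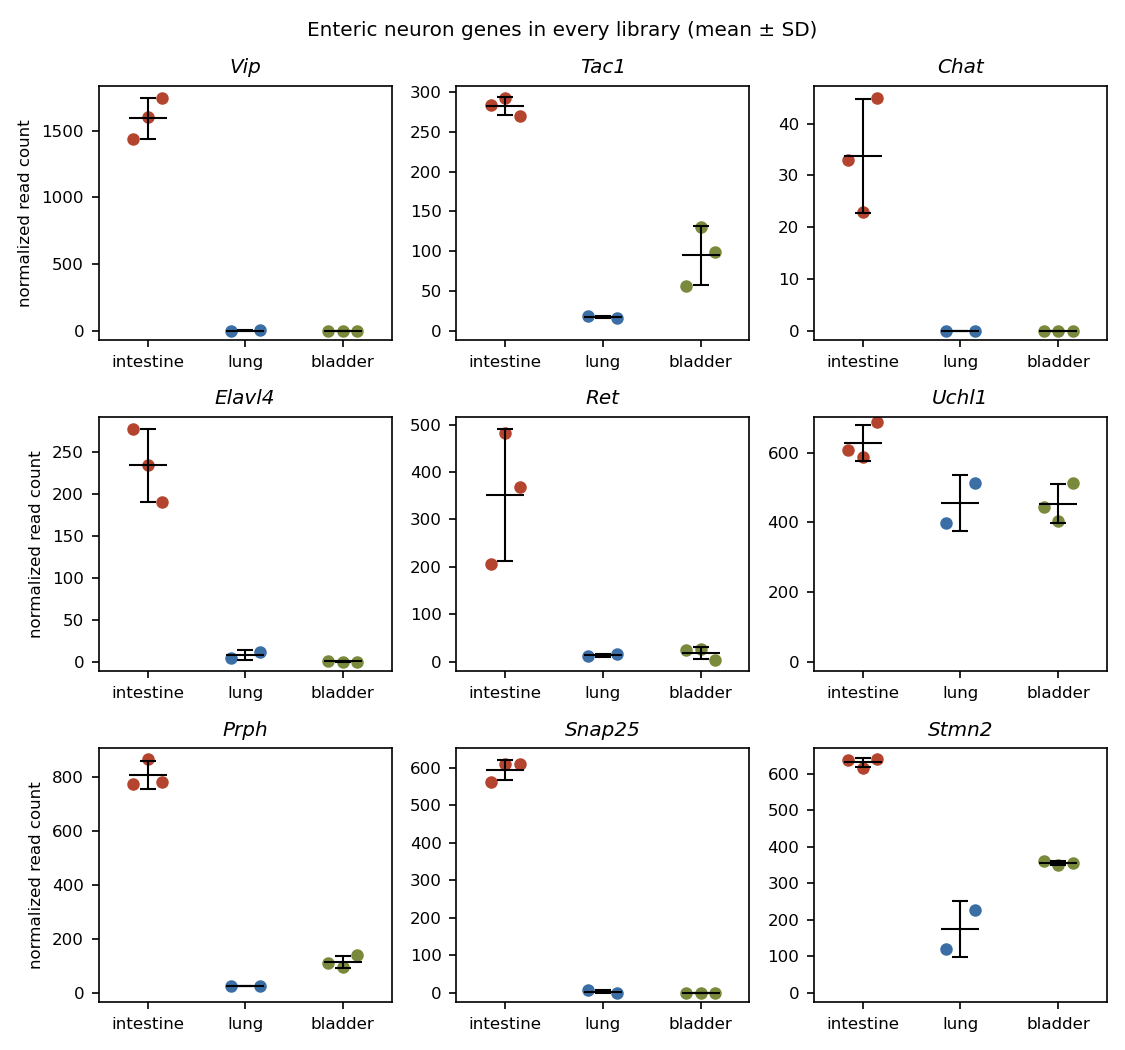
Normalized read count (vertical axis, linear, a separate scale for each gene) of the 9 members in intestine, lung and bladder libraries, with a point per library and lines for the mean ± SD. Every intestine point lies above every lung and bladder point of the same gene, with the narrowest gap relative to the level for Uchl1 (587 in intestine against at most 514 elsewhere).

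Among the transmitter genes, Vip encodes vasoactive intestinal peptide, a relaxant transmitter of inhibitory motor neurons and secretomotor neurons. The gene (ENSMUSG00000019772, mm39 chr10:5589218-5597617, plus strand) had normalized read counts of 1436, 1604 and 1744 in the intestine libraries, 0 and 1 in the lung libraries, and 0 in each bladder library. Only the intestine libraries held more than a single read. Its mean of 1595 ± 154 (SD, n = 3) in intestine was at least 441-fold higher than in bladder, computed against the mean of the per-library floors of 3 reads. Against lung it stood as 5229 reads in intestine and 1 in lung, a ratio of 3778 with a 95% counting interval of 678 to 149300. The fitted log2 difference was 10.64 (SE 0.38, adjusted p = 1.67e-07) for intestine minus bladder and 10.14 (SE 0.43, adjusted p = 3.92e-07) for intestine minus lung. Counting intervals and floors cover counting error only.

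Tac1 encodes the precursor of substance P and neurokinin A, contractile transmitters of excitatory motor neurons. It (ENSMUSG00000061762, mm39 chr6:7554879-7565834, plus strand) had 284, 293 and 270 in intestine, 18 and 16 in lung, and 56, 130 and 99 in bladder. The 3 organs did not overlap, and the bladder libraries were more spread than those of intestine, with an SD of 11.6 in intestine and 37.2 in bladder (n = 3 each). Tac1 was 2.97-fold higher in intestine than in bladder (log2 difference 1.64, SE 0.31, adjusted p = 0.00164) and 16.6-fold higher than in lung (log2 difference 3.98, SE 0.35, adjusted p = 2.05e-05).

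Chat encodes choline acetyltransferase, the enzyme that makes acetylcholine. It (ENSMUSG00000021919, mm39 chr14:32130160-32187946, minus strand) had 33, 23 and 45 in intestine and 0 in all 5 libraries of lung and bladder. It was low in intestine and without a read elsewhere. The mean of 33.7 ± 11.0 (SD, n = 3) was at least 9.31-fold higher than in bladder and at least 13.3-fold higher than in lung, against the same floors. The fitted log2 difference was 5.07 against either organ (SE 0.43 and adjusted p = 1.13e-05 for bladder; SE 0.48 and adjusted p = 3.47e-05 for lung). Slc18a3, the vesicular acetylcholine transporter, is annotated within the span of Chat on the same strand, and Gm2990, a long noncoding RNA, overlaps it on the opposite strand. Slc18a3 had 258, 287 and 205 in intestine and Gm2990 had 10, 3 and 12, with both at 0 in lung and bladder. The libraries do not mark the strand, so reads of Gm2990 and Chat where they overlap cannot be told apart, and how reads shared by Chat and Slc18a3 were assigned is not given in the sources used here.

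Ret encodes the receptor tyrosine kinase through which GDNF-family ligands act on the precursors and neurons of the gut. It (ENSMUSG00000030110, mm39 chr6:118128706-118174679, minus strand) had 206, 483 and 368 in intestine, 11 and 16 in lung, and 25, 26 and 3 in bladder. The intestine libraries differed among themselves, with the first the lowest, but all 3 stood above every library of the other organs. At 352 ± 139 (SD, n = 3) in intestine it was 19.6-fold higher than in bladder (log2 difference 4.56, SE 0.70, adjusted p = 0.000494) and 26.1-fold higher than in lung (log2 difference 4.54, SE 0.79, adjusted p = 0.00153). Without bladder replicate 3, the lowest of its group, the log2 difference from bladder was 3.65.

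Elavl4 encodes HuD, an RNA-binding protein of neurons and a target of the Hu antibodies with which enteric neurons are counted. It (ENSMUSG00000028546, mm39 chr4:110060919-110209106, minus strand) had 278, 235 and 191 in intestine, 4 and 12 in lung, and 1, 0 and 0 in bladder. The order was intestine, lung, bladder, and the lung values were low. Against bladder it stood as 772 reads in intestine and 1 in bladder, a ratio of 588 with a 95% counting interval of 105 to 23260. The fitted log2 difference was 7.53 (SE 0.49, adjusted p = 2.51e-06) for intestine minus bladder and 4.85 (SE 0.55, adjusted p = 0.000116) for intestine minus lung. The difference from lung was 4.16 without lung replicate 1 and 5.54 without lung replicate 2.

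Among the structural and release genes, Snap25 encodes a SNARE protein that joins synaptic vesicles to the membrane of the nerve ending. It (ENSMUSG00000027273, mm39 chr2:136555373-136624348, plus strand) had 563, 611 and 609 in intestine, 6 and 0 in lung, and 0 in each bladder library. Apart from a few reads in the first lung library, the signal was in intestine alone. The mean of 594 ± 27.2 (SD, n = 3) was at least 164-fold higher than in bladder. Against lung it stood as 1952 reads in intestine and 7 in lung, a ratio of 201.5 with a 95% counting interval of 97.6 to 502. The fitted log2 difference was 9.22 (SE 0.63, adjusted p = 3.47e-06) for intestine minus bladder and 7.81 (SE 0.71, adjusted p = 2.72e-05) for intestine minus lung. The difference from lung was 9.22 without lung replicate 1 and 6.41 without lung replicate 2.

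Prph encodes peripherin, an intermediate filament of peripheral neurons. It (ENSMUSG00000023484, mm39 chr15:98953055-98956859, plus strand) had 774, 864 and 780 in intestine, 23 and 24 in lung, and 108, 94 and 139 in bladder. The 3 organs formed 3 separate levels. Prph was 7.09-fold higher in intestine than in bladder (log2 difference 2.83, SE 0.19, adjusted p = 3.13e-06) and 34.3-fold higher than in lung (log2 difference 5.04, SE 0.21, adjusted p = 4.11e-07).

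Stmn2 encodes stathmin-2, a regulator of microtubules in growing axons. It (ENSMUSG00000027500, mm39 chr3:8574420-8626666, plus strand) had 637, 617 and 640 in intestine, 121 and 228 in lung, and 361, 350 and 355 in bladder. The intestine libraries and the bladder libraries each agreed closely, at 631 ± 12.5 and 355 ± 5.51 (SD, n = 3 each), while the lung libraries were further apart, at 175 ± 75.7 (SD, n = 2). Stmn2 was 1.78-fold higher in intestine than in bladder (log2 difference 0.83, SE 0.20, adjusted p = 0.00721) and 3.62-fold higher than in lung (log2 difference 1.92, SE 0.23, adjusted p = 0.000152).

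Uchl1 encodes a ubiquitin hydrolase that is abundant in neurons and known to pathologists as PGP9.5. It (ENSMUSG00000029223, mm39 chr5:66833434-66844577, plus strand) had 609, 587 and 687 in intestine, 398 and 512 in lung, and 444, 404 and 514 in bladder. It was read at similar strength in every library. Uchl1 was 1.38-fold higher in intestine than in either bladder (log2 difference 0.47, SE 0.14, adjusted p = 0.0179) or lung (log2 difference 0.47, SE 0.16, adjusted p = 0.0376). The call against bladder was lost under quantile normalization (adjusted p = 0.0633) and without bladder replicate 1 (0.0516), bladder replicate 2 (0.0724) or intestine replicate 3 (0.0723). The call against lung was lost under 11 of the 18 alternatives, with adjusted p between 0.0548 and 0.181. The direction stayed the same in all of these.

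**Figure D2:**
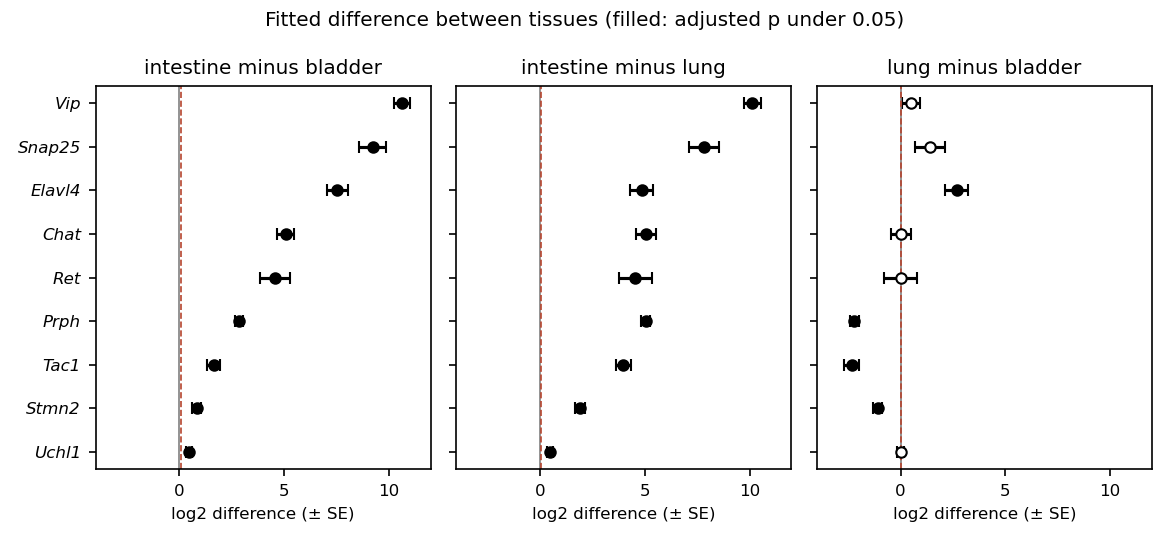
Fitted log2 difference (horizontal axis, ± SE) of each member for intestine minus bladder, intestine minus lung and lung minus bladder, with filled circles at an adjusted p under 0.05 and a dashed line at the median of all 18097 genes tested (0.06, 0.04 and 0). Against bladder the differences run from 0.47 for Uchl1 to 10.64 for Vip, while for lung minus bladder 4 circles are filled, with Elavl4 on the right and Tac1, Prph and Stmn2 on the left.

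Lung and bladder also differed from each other in some of the 9. For lung minus bladder, 1 member was higher, 3 were lower and 5 did not pass the test, where 19.2% of all genes tested were higher and 21.8% lower. Tac1 was lower in lung (log2 difference -2.34, SE 0.35, adjusted p = 0.000602), as were Prph (-2.21, SE 0.21, adjusted p = 4.69e-05) and Stmn2 (-1.09, SE 0.23, adjusted p = 0.00412). Elavl4 was higher in lung, on 19 reads there and 1 read in bladder (log2 difference 2.68, SE 0.55, adjusted p = 0.00389), with a ratio of 20.0 and a 95% counting interval of 3.19 to 832. That log2 difference was 3.37 without lung replicate 1 and 1.99 without lung replicate 2. The count of members higher in lung was 2 with the deposited scaling undone and 2 without lung replicate 2, and 0 where only these 2 tissues entered the fit. The Snap25 difference, 1.404 in the fit of all libraries (adjusted p = 0.146), was 2.81 without lung replicate 2 and 0 without lung replicate 1. With a single lung library left, that library is assumed to vary like the other groups, so those fits say nothing of the spread in lung. Stmn2 missed the threshold with the scaling undone (-0.58, adjusted p = 0.0566). Vip, Chat, Ret and Uchl1 did not pass the test between lung and bladder, with log2 differences of 0.50 (SE 0.43), 0 (SE 0.48), 0.02 (SE 0.79) and -0.0011 (SE 0.16). In the same comparison, glial genes had 3 higher and 9 lower of 17, and epithelial genes 1 higher and 8 lower of 16. Neuronal identity genes had 2 higher and 6 lower of 14, and other neuropeptide genes 2 and 5 of 15. Receptor genes for VIP, tachykinins and acetylcholine had 1 and 3 of 8. Tuft cell genes had 0 and 2 of 7, and enteroendocrine genes 0 and 1 of 17. Other lists ran the other way. Neuronal cytoskeleton genes had 6 higher and 2 lower of 16, and transmitter genes 3 and 1 of 11. GDNF and endothelin-3 genes had 7 and 5 of 13, and smooth muscle genes 6 and 0 of 10. Synaptic genes had 7 and 6 of 23, interstitial cell genes 3 and 1 of 5, and pulmonary neuroendocrine genes 1 and 0 of 6. The majority was lost under 1 of 18 alternatives for synaptic and for tuft cell genes. It was lost under 2 for enteroendocrine and 3 for pulmonary neuroendocrine genes. The part of any list in the members' result was not tested. The sign for Ret and for Uchl1 turned under 5 alternatives each, and with the scaling undone Uchl1 was higher in lung (0.51, adjusted p = 0.0382).

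The set of members that was read differed between the organs. In the intestine libraries all 9 were read. In bladder, Vip, Chat and Snap25 were at 0 in all 3 libraries and Elavl4 had a single read, while Uchl1, Stmn2, Prph, Tac1 and Ret were read in each library. Uchl1 and Stmn2 made up 24.4% of the members' summed mean in intestine, 90.6% in lung and 78.1% in bladder. In lung, Chat was at 0, Vip had a single read and Snap25 had reads in the first library alone. In lung and bladder Uchl1 and Stmn2 were thus read with Vip and Chat at or near 0. That they were chosen as genes of enteric neurons does not give their source in these organs. Which cells the reads came from was not tested.

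Exon lengths merged all annotated exons of a gene, whichever transcript was expressed, so levels of different genes compare only roughly. Per kb of exon, the normalized read count in intestine was 469 for Vip, 403 for Prph and 385 for Uchl1. It was 113 for Stmn2, 87.5 for Snap25 and 83.1 for Tac1. Ret followed at 52.1, Elavl4 at 43.6 and Chat at 7.16. In lung the order per kb began with Uchl1 at 279, Stmn2 at 31.1 and Prph at 11.8, and in bladder with Uchl1 at 278, Stmn2 at 63.4 and Prph at 56.9. The gene with the highest level per kb was Vip in intestine and Uchl1 in the other organs.

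Between the 3 intestine libraries the members did not move as 1 block. The first library held the lowest value of 4 of the 9 members and the highest of 1, the second the lowest of 3 and the highest of 4, and the third the lowest of 2 and the highest of 4. The median log2 deviation of the members from their own intestine mean was -0.04, 0.02 and 0.04 in libraries 1, 2 and 3. Elavl4 was highest in library 1, where Vip, Snap25, Ret and Prph were lowest. Genes of glia, the supporting cells of the enteric ganglia, had their lowest value in library 1 for 13 of 16 genes that reached at least 20 in each intestine library, and genes of smooth muscle had theirs in library 2 for 9 of 10.

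Other genes of the neuronal programme were counted in lists by role. Over all genes tested, 28.7% were higher and 23.3% lower in intestine than in bladder, and 23.6% were higher and 15.9% lower than in lung. Of 14 neuronal identity genes tested, 7 were higher and 3 lower in intestine than in bladder, and 10 were higher and 2 lower in intestine than in lung. The list's median log2 difference was 1.33 against bladder and 2.86 against lung, beside 0.06 and 0.04 over all genes. Tlx2, a homeobox gene of enteric neurons, had 182, 241 and 258 in intestine, 2 and 0 in lung, and 0, 0 and 2 in bladder. Like Vip and Snap25, it was at or near 0 outside intestine. Phox2a, a homeobox gene of autonomic neurons, averaged 43.3 ± 12.5 in intestine, 54.0 ± 31.1 in lung and 3.00 ± 1.73 in bladder (SD), so that it was higher in intestine than in bladder (log2 difference 3.55, adjusted p = 0.00038) and did not pass the test against lung (-0.23, adjusted p = 0.785). The splicing factor Rbfox1 was higher in intestine than in bladder (log2 difference 2.85, adjusted p = 0.000403) and lower than in lung (-1.70, adjusted p = 0.0189). Isl1, a homeobox gene of several neuron types, was lower in intestine than in bladder, at 95.7 ± 34.8 in intestine and 327 ± 37.8 in bladder (SD, n = 3 each; log2 difference -1.82, adjusted p = 0.00886). Hand2, needed for enteric neurons and also a gene of other mesenchyme, had 370, 380 and 372 in intestine, 4 and 20 in lung, and 287, 249 and 305 in bladder, which passed the test against lung (log2 difference 5.19, adjusted p = 3.26e-05) and not against bladder (0.42, adjusted p = 0.447).

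Of 11 genes tested for making and moving transmitters, 9 were higher and 1 lower in intestine than in bladder, and 8 were higher and 1 lower in intestine than in lung. The median log2 difference was 3.57 against bladder and 1.51 against lung, and 3.36 against bladder with genes at 0 throughout an organ set to their bound. Of the cholinergic genes, Slc18a3 was at least 69.2-fold higher in intestine than in bladder. Slc5a7, the choline transporter of cholinergic endings, had 89, 73 and 81 in intestine and 0 in lung and bladder, and was at least 22.4-fold higher than in bladder and at least 32.0-fold higher than in lung. Ache, which encodes acetylcholinesterase, had 1233, 1356 and 1330 in intestine, 97 and 113 in lung, and 4, 4 and 5 in bladder (log2 difference 7.94, SE 0.22, adjusted p = 6.54e-08 against bladder). Ddc, the enzyme that makes dopamine and serotonin from their precursors, averaged 546 ± 33.2 in intestine, 277 ± 51.6 in lung and 25.3 ± 11.9 in bladder (SD; log2 difference 4.46, adjusted p = 2.54e-06 against bladder). Slc6a2, the noradrenaline transporter of sympathetic endings, ran the other way with 41, 55 and 83 in intestine, 185 and 110 in lung, and 538, 611 and 526 in bladder (log2 difference -3.26, SE 0.29, adjusted p = 1.45e-05 against bladder). Nos1, the neuronal nitric oxide synthase of inhibitory motor neurons, was picked after its values were seen, for its role beside Vip. It had 65, 79 and 95 in intestine, 2 and 10 in lung, and 0, 0 and 7 in bladder (log2 difference 5.32, SE 0.84, adjusted p = 0.000562 against bladder).

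Of 15 other neuropeptide genes tested, 9 were higher and 4 lower in intestine than in bladder, and 11 were higher and 1 lower in intestine than in lung. The median log2 difference was 4.26 against bladder and 4.63 against lung, or 2.79 and 3.596 with genes at 0 throughout an organ set to their bound. Npy, Cartpt, Sst, Calcb, Nmu, Ucn3 and Scg2 passed the filter on low values through the intestine libraries alone, so these had to differ. Sst, the precursor of somatostatin, had 926, 893 and 1002 in intestine and 0 in all lung and bladder libraries, at least 260-fold higher than in bladder. Nmu, the precursor of neuromedin U, was at least 49.98-fold higher in intestine than in bladder, at 181 ± 28.9 in intestine and 0 in all libraries of lung and bladder. Scg2, the precursor of secretoneurin, averaged 3378 ± 151 in intestine, 1.00 ± 1.41 in lung and 6.00 ± 4.36 in bladder (SD). Calcb, a calcitonin gene-related peptide gene, averaged 423 ± 47.3 in intestine (SD, n = 3), with 11 and 4 in lung and 0, 0 and 1 in bladder. Sst and Scg2 are known in enteroendocrine cells as well as in neurons. Penk, the enkephalin precursor, was lower in intestine than in bladder, at 835 ± 93.5 in intestine and 1605 ± 105 in bladder (SD, n = 3 each; log2 difference -0.95, adjusted p = 6.24e-05). Cck, the cholecystokinin gene, did not pass the test against bladder (log2 difference -0.53, adjusted p = 0.0904).

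Of 23 genes of synaptic vesicles and SNARE complexes, 15 were higher and 2 lower in intestine than in bladder, and 13 were higher and 1 lower in intestine than in lung, with medians of 1.09 and 0.92. Syt1, the calcium sensor of transmitter release, had 428, 502 and 428 in intestine, 64 and 47 in lung, and 0, 0 and 5 in bladder. Syt4, a related synaptotagmin, averaged 163 ± 34.2 in intestine, 0 in lung and 0.333 ± 0.577 in bladder (SD). Rab3c, a small GTPase of secretory vesicles, averaged 130 ± 26.4 in intestine, 0 in lung and 0.667 ± 1.16 in bladder (SD). Vamp2, the vesicle partner of Snap25, was by contrast abundant in all 3 organs, at 2559 ± 75.7 in intestine, 2590 ± 106 in lung and 2928 ± 46.9 in bladder (SD; log2 difference -0.19, adjusted p = 0.0144 for intestine minus bladder). Syn2, a synapsin, was higher in intestine than in bladder (log2 difference 1.35, adjusted p = 1.47e-05).

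Of 16 neuronal cytoskeleton genes, 12 were higher and 1 lower in intestine than in bladder, and 8 were higher and 2 lower in intestine than in lung, with medians of 2.17 and 0.78. Map2, a microtubule protein of dendrites, averaged 393 ± 59.6 in intestine, 101 ± 9.90 in lung and 22.7 ± 3.22 in bladder (SD). Kif5a, a kinesin of neurons, averaged 452 ± 59.5 in intestine, 29.5 ± 6.36 in lung and 51.0 ± 15.1 in bladder (SD). Mapt, which encodes tau, was higher in intestine than in bladder (log2 difference 2.82, adjusted p = 1.36e-05) and did not pass the test against lung (0.01, adjusted p = 0.988). Map1b, a microtubule protein of axons, was higher in intestine than in bladder (log2 difference 1.17) and lower than in lung (-0.95, adjusted p = 0.000181). Dpysl3, an axon guidance protein also made outside neurons, was lower in intestine than in bladder (-0.57, adjusted p = 1.81e-05). Tubb2b, a tubulin, did not pass that test (0.65, adjusted p = 0.0728).

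**Figure D3:**
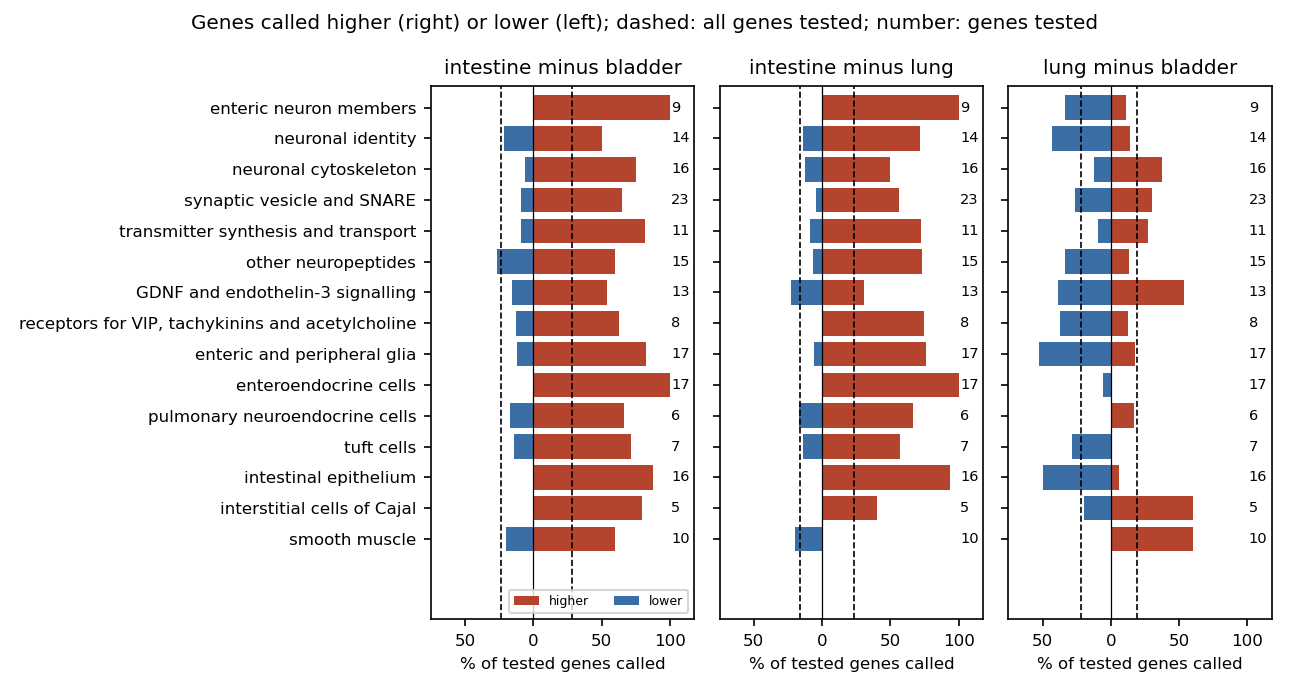
Share of the tested genes of each list (horizontal axis, percent; higher to the right, lower to the left) past an adjusted p of 0.05 for each pair of organs, with the number of genes tested at the right and dashed lines at the share over all genes. In both comparisons of intestine the members and the enteroendocrine genes reach 9 of 9 and 17 of 17, and smooth muscle genes have 6 of 10 higher against bladder and 0 of 10 higher against lung. Of these, 4 members and all the enteroendocrine genes but Sct passed the filter through intestine alone and had to differ.

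Ligands and co-receptors of Ret, endothelin-3 and neurotrophin-3 genes were counted together. Of these 13 genes, 7 were higher and 2 lower in intestine than in bladder, with a median log2 difference of 1.19. Against lung 4 were higher and 3 lower, a majority that 7 of 18 alternatives did not keep, with a median of 0.31. These counts lie near the shares over all genes tested, 23.6% higher and 15.9% lower. Gdnf, the main Ret ligand of the gut, and Gfra1, the co-receptor it binds, were picked after their values were seen. Gdnf had 153, 96 and 86 in intestine, 66 and 22 in lung, and 5, 9 and 3 in bladder (log2 difference 4.13, SE 0.51, adjusted p = 0.000129 against bladder; 1.48, adjusted p = 0.0693 against lung). Gfra1 averaged 380 ± 87.9 in intestine, 19.0 ± 11.3 in lung and 209 ± 48.2 in bladder (SD; log2 difference 0.86, adjusted p = 0.0558 against bladder; 4.35, adjusted p = 1.89e-05 against lung). Nrtn, which encodes the Ret ligand neurturin, averaged 638 ± 54.2 in intestine, 1214 ± 43.1 in lung and 125 ± 48.7 in bladder (SD), with a log2 difference of 2.41 against bladder (adjusted p = 3.00e-05) and -0.93 against lung (adjusted p = 0.0205). Artn, a further Ret ligand, did not pass the test against bladder (log2 difference -0.01, adjusted p = 0.959). Edn3, the endothelin that keeps enteric precursors dividing, had 239, 281 and 233 in intestine, 261 and 155 in lung, and 2442, 2508 and 2347 in bladder (log2 difference -3.28, SE 0.18, adjusted p = 9.59e-07 against bladder). Ntf3, neurotrophin-3, and Ntrk3, its receptor, were higher in intestine than in bladder (log2 differences 1.363 and 4.51).

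Receptors for the transmitters of the members were counted as well. Of 8 receptor genes for VIP, tachykinins and acetylcholine, 5 were higher and 1 lower in intestine than in bladder, and 6 were higher and 0 lower in intestine than in lung. The medians were 2.76 and 3.52, or 2.40 and 3.22 with genes at 0 throughout an organ set to their bound. Vipr2, a receptor for VIP, had 1038, 1027 and 1029 in intestine, 82 and 33 in lung, and 96, 131 and 103 in bladder (log2 difference 3.23, SE 0.29, adjusted p = 1.86e-05 against bladder). Vipr1, the other VIP receptor, averaged 585 ± 65.4 in intestine, 7.00 ± 5.66 in lung and 54.0 ± 6.25 in bladder (SD). Adcyap1r1, the receptor of the related peptide PACAP, was lower in intestine than in bladder, at 1255 ± 206 in intestine and 3644 ± 218 in bladder (SD, n = 3 each; log2 difference -1.55, adjusted p = 2.66e-05), and higher than in lung (3.75). Tacr3, a tachykinin receptor, averaged 20.7 ± 8.39 in intestine and was at 0 in all libraries of lung and bladder. Tacr1, the substance P receptor, was at 42.0 ± 31.1 in intestine and 15.3 ± 1.16 in bladder (SD, n = 3 each), which did not pass the test (log2 difference 1.02, adjusted p = 0.27), and neither did Tacr2 (0.62, adjusted p = 0.579).

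Markers of other cell types of the gut were read in the same intestine libraries. Of 17 genes of enteric and peripheral glia, 14 were higher and 2 lower in intestine than in bladder, and 13 were higher and 1 lower in intestine than in lung, with median log2 differences of 2.81 and 4.42. Their summed normalized read count ran from 6842 to 7735 in intestine, from 3454 to 3934 in lung and from 6966 to 7387 in bladder. Sox10, a transcription factor of glia, had 190, 200 and 196 in intestine, 0 and 0 in lung, and 18, 13 and 16 in bladder (log2 difference 3.57, SE 0.33, adjusted p = 1.87e-05 against bladder). Gpm6b and Entpd2, which are also made outside glia, were lower in intestine than in bladder (log2 differences -1.52 and -0.85).

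Of 17 enteroendocrine genes tested, 17 were higher in intestine against bladder and 17 against lung, with median log2 differences of 5.39 and 5.89 (5.38 and 5.82 with genes at 0 throughout an organ set to their bound). All of these but Sct passed the filter on low values through the intestine libraries alone, so they had to differ. Enteroendocrine cells are hormone cells of the gut epithelium that share secretory and vesicle genes with neurons. Their 20 genes in the table summed to between 5883 and 6661 in intestine, 21 and 25 in lung, and between 32 and 53 in bladder, with 10 of the 20 at 0 in every lung library and 9 in every bladder library. Chgb had 2559, 2572 and 2660 in intestine, 0 and 11 in lung, and 0 in each bladder library, and was at least 718-fold higher in intestine than in bladder. Chga had 1166, 1400 and 1458 in intestine, 0 and 3 in lung, and 0, 4 and 3 in bladder. Gip and Gast, hormone genes of enteroendocrine cells that neurons are not known for, averaged 187 ± 14.8 and 410 ± 33.0 in intestine (SD, n = 3), with 0 in every bladder library. Of 16 genes of intestinal epithelium, 14 were higher and 0 lower in intestine than in bladder, and 15 were higher and 0 lower in intestine than in lung, with medians of 3.68 and 6.04. Their sum ran from 23906 to 25427 in intestine, from 1448 to 1614 in lung and from 4746 to 6839 in bladder. Vil1, Cdx1, Cdx2, Fabp2, Alpi and Muc2 passed the filter through the intestine libraries alone and had to differ. Epcam, an adhesion protein of epithelia, had 2541, 2423 and 2658 in intestine, 32 and 56 in lung, and 109, 126 and 183 in bladder. Cdx1, a transcription factor of gut epithelium, averaged 1481 ± 82.1 in intestine (SD, n = 3) and was at 0 in the lung and bladder libraries.

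Further marker lists covered tuft, interstitial, pulmonary neuroendocrine and muscle cells. Of 7 tuft cell genes, 5 were higher and 1 lower in intestine than in bladder, though under quantile normalization a majority was not kept, and 4 were higher and 1 lower against lung, with medians of 1.32 and 1.86. Their sum ran from 1294 to 1481 in intestine, from 1438 to 1684 in lung and from 1652 to 1763 in bladder. Of 5 genes of interstitial cells of Cajal, the pacemaker cells of gut muscle, 4 were higher and 0 lower against bladder, and 2 were higher and 0 lower against lung, with medians of 2.09 and 0.29 and sums from 4056 to 4952 in intestine, from 2269 to 4010 in lung and from 1143 to 1304 in bladder. Kit, their receptor tyrosine kinase, had 435, 348 and 321 in intestine, 1015 and 393 in lung, and 122, 63 and 83 in bladder. Of 6 genes of pulmonary neuroendocrine cells, 4 were higher and 1 lower in intestine than in either bladder or lung, with medians of 3.20 and 3.33 and sums from 1972 to 2416 in intestine, from 286 to 464 in lung and from 213 to 256 in bladder. Of these 6, Chga and Scg5 are also counted with the enteroendocrine genes, Calca and Grp with the neuropeptides and Syp with the synaptic genes. Of 10 smooth muscle genes, 6 were higher and 2 lower in intestine than in bladder, and 0 were higher and 2 lower in intestine than in lung (not kept without intestine replicate 2), with medians of 0.56 and -0.05 and sums from 35660 to 38678 in intestine, from 36905 to 39980 in lung and from 21598 to 26137 in bladder. Most markers of glia and epithelium, and all enteroendocrine genes tested, were thus higher in intestine than in either other organ, as were the 9 members. The summed glial count, however, overlapped between intestine and bladder. Entpd2 and Gpm6b, also made outside glia, held much of the bladder sum, at means of 2736 and 2380 of 7213. In intestine these 2 genes averaged 1514 and 830 of 7379. Most genes of tuft, interstitial, pulmonary neuroendocrine and smooth muscle cells were also higher in intestine against bladder. The part of all these cell types in the members' differences was not tested.

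**Figure D4:**
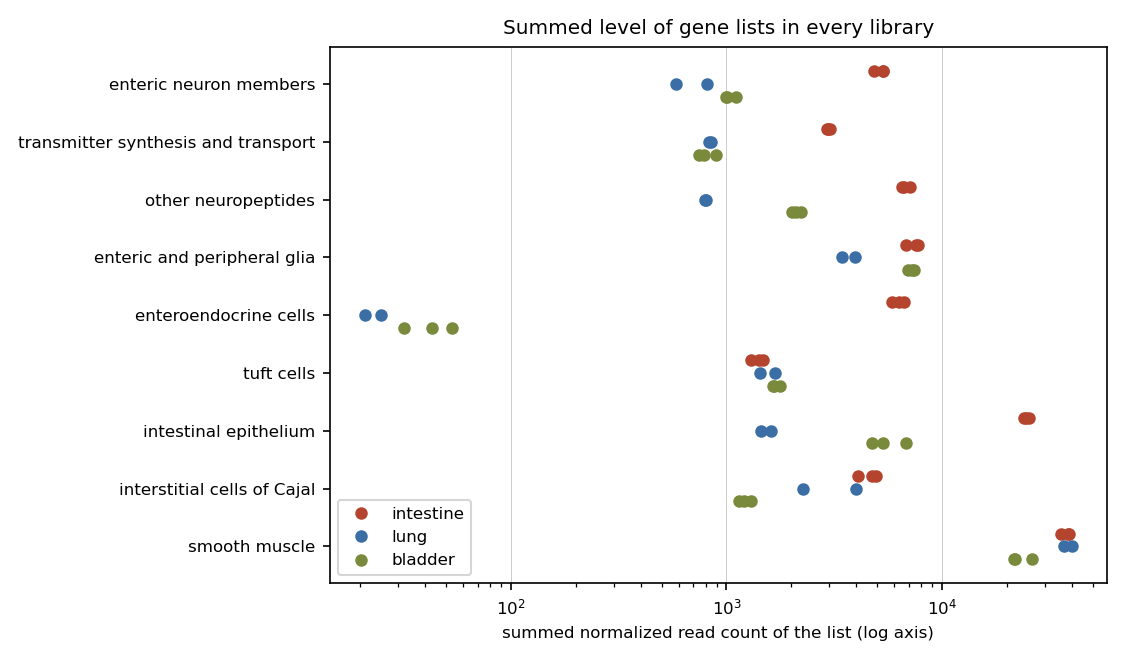
Summed normalized read count of each list (horizontal axis, log scale) with a point for each of the 3 intestine, 2 lung and 3 bladder libraries. The members run from 4820 to 5334 in intestine, 581 to 809 in lung and 995 to 1110 in bladder. The enteroendocrine genes show the widest gap between organs (5883 to 6661 in intestine and at most 53 elsewhere). The glial sums overlap between intestine and bladder, with Entpd2 and Gpm6b, also made outside glia, averaging 2736 and 2380 in bladder.

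The genes outside the 9 whose profile over the 8 libraries lay nearest to the members' mean profile, each gene centred on its own log2 mean, were Adgrf1, Defa3, Defa27, Slc9a2 and Muc20, out of 15670 named genes compared. Their root mean square distance was 0.141, 0.149, 0.183, 0.187 and 0.195. Adgrf1, an adhesion receptor, had 32, 27 and 29 in intestine and 0 in lung and bladder. Slc9a2, a sodium-proton exchanger of epithelia, had 591, 731 and 547 in intestine, 16 and 17 in lung, and 25, 26 and 19 in bladder. Defa3 and Defa27 are Paneth cell defensins of a family of near-identical copies, so that the split of reads among them is uncertain. The members themselves lay at distances from 0.278 for Chat and 0.785 for Ret to 2.10 for Uchl1 and 2.75 for Vip, so that Chat alone of the 9 came near these neighbours, and the mean profile is a compromise between members with very different spans.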

How the data were processed

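The deposited table gives gene coordinates and a score per library. The submitters' processing notes name build mm39 and, with neither role nor order, DESeq2 1.36.0, featureCounts 2.0.4, STAR 2.7.10a, Trimmomatic 0.39 and Picard 3.0.0. The deposited score values are whole, and their spacing is that of reads scaled per library and then rounded, as read from the values. They are called normalized read counts. The value of 1 read, taken from that spacing, gave depths and the floor of 3 reads.

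The 18097 genes that reached 10 or more in 2 or more libraries were fitted with limma 3.58.1 with an intensity trend (R 4.3.3) on log2(value + 1), a pseudocount of 1, with all 8 libraries in 1 fit and a mean per tissue. With a pseudocount, log2 differences understate the change of low genes that were read in both organs. Where an organ is at 0 throughout, the pseudocount sets the size of the difference. Over the alternatives, the difference from bladder ran from 3.19 to 6.04 for Chat and from 8.64 to 11.63 for Vip. The members' median against bladder was 4.56 as fitted and 3.22 with genes at 0 throughout an organ set to their bound. Benjamini-Hochberg adjusted p-values under 0.05 were calls. Exon lengths came from GENCODE for 96.8% of genes. Promoter windows (GRCm38.p6) are on another build than the mm39 coordinates of the genes.

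The members and lists were chosen with earlier results of these data known. In every list, genes that passed the filter on low values through the intestine libraries alone had to lean towards intestine. Elavl2, among them, did not pass the test against bladder (adjusted p = 0.291) or lung (adjusted p = 0.104). The rule for named genes took all members, the genes behind the sort, and of each list up to 4 genes with the smallest p for intestine minus bladder and up to 2 abundant genes that missed the threshold or ran against the list, with some defining markers. Nos1, Gdnf and Gfra1 fall outside it, and a few genes it picked are left unreported. Reads were amplified and carry no molecular identifiers, so they are not independent molecules. Alternatives covered the pseudocount, filter, scaling, trend, tissues fitted, replicate block and each library left out.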

Additional observations from a re-analysis of the deposited data

How the results depend on the processing

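All 9 members stayed higher in intestine, against bladder and against lung, in each of the 18 alternatives in which they were tested (Chat was not at a filter of 50), except that Uchl1 missed the threshold in 4 against bladder and 11 against lung. Its direction held in each. For lung minus bladder, the count of members called higher was 1, with 2 when the deposited scaling was undone, 0 when only the 2 tissues compared were fitted, where Elavl4 did not pass the filter, and 1 to 2 when a library was left out. The sign of the lung minus bladder difference turned for Ret with a pseudocount of 4 (-0.0763), quantile normalization (-0.0906), the replicate block (-0.40), without bladder replicate 3 (-0.89) and without lung replicate 2 (-0.23), none past the threshold, and over the left-out libraries it ran from -0.89 to 0.486. It turned for Uchl1 with equal totals (0.14), the scaling undone (0.51), the replicate block (0.0787), without bladder replicate 3 (0.09) and without lung replicate 1 (0.18). The cause was not tested.

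Undoing the scaling moved the median log2 difference of all genes to 0.46 for intestine minus bladder, -0.07 for intestine minus lung and 0.48 for lung minus bladder, equal totals to 0.16, -0.01 and 0.12, and quantile normalization to -0.15, -0.18 and 0.03. The share of calls that were higher, 55.2%, 59.7% and 46.7% in these pairs, became 81.3%, 49.1% and 81.0% when the scaling was undone. It became 61.9%, 54.0% and 58.7% under equal totals, and 41.7%, 40.5% and 50.3% under quantile normalization. The shared replicate numbers pair no samples by the labels, and the deviations of same-numbered libraries correlated at -0.0264 to 0.0581. With the replicate block, 5058 genes were higher and 3982 lower for intestine minus bladder, beside 5185 and 4210 without it, and Uchl1 was no longer called against lung (0.39, adjusted p = 0.0882).

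Depth limits the low values: 3 reads were worth a mean of 2.75 in intestine, 2.53 in lung and 3.62 in bladder, so Vip and Chat in lung, and Vip, Chat, Snap25 and Elavl4 in bladder, lay under what these libraries can show.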
